A study of Mus musculus with 4 samples.

Results

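The callus cells described here were read for 9 genes through which the NF-kB pathway limits or reshapes its own activity: Nfkb1, Nfkb2, Relb, Nfkbia, Nfkbiz, Bcl3, Tnfaip3, Birc3 and Zc3h12a. They were chosen by name, all 9 were found among the 32285 genes of the count tables, and the question was which cell types carry them in healing fractures of arthritic and control mice. Mature dendritic cell-like cells had the highest level of 5 of the 9 genes in the 23 cell classes that all libraries held, and natural killer cell-like, venular-like, arterial-like and MHC class II-high macrophage-like cells had the highest level of 1 gene each. Differences between arthritic and control callus were mostly small beside these differences between cell types. At 4 dpf (days post fracture) 3 of 139 gene-class pairs (2.16%) were at least 1.5-fold higher in arthritic callus, against 5.47% over all genes. Another 5 (3.60%) were at least 1.5-fold lower, against 4.78%. At 7 dpf 12 of 174 (6.90%) were higher and 2 (1.15%) lower, against 5.89% and 5.08% over all genes.

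NF-kB is a family of transcription factor dimers that wait in the cytoplasm, bound by inhibitor proteins, until cytokines such as TNF and IL-1 or microbial products engage their receptors and activate the IKK kinase complex. The kinases mark the inhibitors for destruction, and the freed dimers switch on inflammatory genes together with genes that encode their own subunits, inhibitors and signal-ending enzymes. In bone repair the pathway is known for shaping early inflammation, osteoclast formation and the behavior of skeletal progenitors.

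Single-cell RNA sequencing was done on tibia fracture callus of wild-type mice (strain C57BL/6J, 3 months old), with 1 library for each of 4 groups. The control_4d and control_7d libraries came from Vehicle-treated mice and the RA_4d and RA_7d libraries from mice given K/BxN serum, which transfers arthritis through autoantibodies and models rheumatoid arthritis (RA) without a mutation in the recipient. Each library pooled several mice, given as 3 or as 4 per group in different sources, so that mice cannot be separated, cells are not replicates and no test between conditions exists. With 1 library per group, the condition and whatever else set a library apart cannot be told apart.

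After the cell filter the libraries held 5470 (control_4d), 7676 (control_7d), 4110 (RA_4d) and 8223 (RA_7d) cells, with median depths of 16094 to 17632 UMIs (unique molecular identifiers, counted transcripts) per cell. Of these 25479 cells, 21621 (84.9%) fell into 27 classes named "-like" after marker genes, none of which was among the 9 genes. A class was compared between conditions where both libraries held at least 50 of its cells, which 16 classes met at 4 dpf, 20 at 7 dpf and 14 at both. Of the kept cells, 132 carried a barcode that recurred in another library, and 592 (2.32%) were called doublets and kept. RA_4d stood apart from control_4d in transcripts of blood cells across the 16 classes compared at 4 dpf. Hemoglobin Hbb-bs was lower in RA_4d in 15 of them (618 to 2.85 CPM in fibroblast-like cells) and higher in muscle-like cells (188 to 268), and summed neutrophil markers were higher in all 16, from 8.01 to 271 CPM in fibroblast-like cells and from 78.2 to 81.3 in muscle-like cells. All levels are counts per 1e6 UMIs (CPM) of the class in that library, read from the 3′ end and therefore compared only within a gene, and intervals cover counting error only.

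Promoter sequence was examined because several of the 9 genes are textbook NF-kB targets. The RefSeq promoter table (GRCm38.p6) held 9 windows for 6 of the genes (Nfkb2, Nfkbia, Tnfaip3, Birc3, Bcl3 and Zc3h12a). The 250 bases before each start were searched on both strands for GGGNNNTTCC and GGGNNNTCCC, forms of the kB motif that can overlap. Of 32817 promoters, 8.81% held either form and 0.46% held them at 2 or more places. A match was found in 6 of the 9 windows, those of Nfkb2, Nfkbia and Tnfaip3, whereas the windows of Birc3, Bcl3 and Zc3h12a held none. The whole Nfkbia window and the 30 bases around each match in Nfkb2 and Tnfaip3 are shown 5′ to 3′ in the direction of the gene, as the genes whose windows hold these letters, with the match in capitals.
Nfkbia, chr12:55492648-55492897, minus strand: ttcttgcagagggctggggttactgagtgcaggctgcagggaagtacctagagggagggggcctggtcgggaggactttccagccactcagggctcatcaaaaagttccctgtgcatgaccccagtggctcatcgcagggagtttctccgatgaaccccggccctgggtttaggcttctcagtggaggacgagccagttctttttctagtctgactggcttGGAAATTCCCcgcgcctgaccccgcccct
Nfkb2 at the first start, chr19:46304689-46304718, plus strand: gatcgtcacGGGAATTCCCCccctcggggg
Nfkb2 at the first start, chr19:46304707-46304736, plus strand: ccccctcggggggccgaaaGGGGCTTTCCC
Nfkb2 at the second start, chr19:46305449-46305478, plus strand: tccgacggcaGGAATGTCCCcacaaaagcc
Nfkb2 at the third start, chr19:46305695-46305724, plus strand: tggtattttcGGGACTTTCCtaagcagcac
Tnfaip3 at the first start, chr10:19012034-19012063, minus strand: ctgaaaacgtGGGTTATTCCcctcctcctc
Tnfaip3 at the second start, chr10:19015516-19015545, minus strand: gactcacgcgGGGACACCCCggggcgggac
Tnfaip3 at the second start, chr10:19015411-19015440, minus strand: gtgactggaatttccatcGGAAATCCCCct

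The Nfkbia match lay 20 to 29 bases before the start of a gene that spans chr12:55489410-55492647 on the minus strand. Nfkb2 (chr19:46304320-46312385, plus strand) and Tnfaip3 (chr10:19000910-19015657, minus strand) have several annotated starts, so some of their windows lie inside the gene. Starts are numbered by ascending coordinate. In the direction of the gene the first start of Nfkb2 is therefore the most upstream, whereas the first start of Tnfaip3 lies downstream of its second. A match is a description of letters, not a measured binding site.

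Among the subunit genes, Relb, which encodes the partner of the noncanonical dimer, was the most restricted to mature dendritic cell-like cells. Relb was at 489 CPM in control_4d, 561 in RA_4d, 567 in control_7d and 609 in RA_7d in these cells. Lymphatic-like cells came next, at a mean of 73.5 CPM with a highest library of 90.6, so the ranges of the 2 classes did not overlap and their means differed 7.57-fold. Nfkb2, which encodes the precursor of that noncanonical subunit, was at 190, 188, 206 and 166 CPM in the same order of libraries and stood 3.13-fold above MHC class II-high macrophage-like cells (mean 59.9 CPM), again without overlap. Nfkb1, which encodes the precursor of a canonical subunit, was broader. In mature dendritic cell-like cells Nfkb1 ranged from 412 CPM in RA_7d to 873 in control_7d, which overlapped natural killer cell-like cells (mean 560, range 457 to 680) and T cell-like cells (mean 435, range 311 to 572). Fibroblast precursor-like cells followed at a mean of 383 CPM (range 355 to 441). The mature dendritic cell-like class was small, with 55, 22, 27 and 25 cells in control_4d, RA_4d, control_7d and RA_7d, too few for a comparison between conditions. Its markers Ccr7 and Ccl22 led its gene list.

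The inhibitors of the IkB family were highest in vessels or in myeloid cells. Nfkbia, which encodes the classical cytoplasmic inhibitor, was highest in arterial-like cells at 1262 CPM in control_4d, 1173 in RA_4d, 1312 in control_7d and 1029 in RA_7d. Venular-like cells overlapped them, with a mean of 1097 CPM (range 969 to 1286). The 2 arterial-like sub-clusters were at 1696 CPM (191 cells, led by Sema3g and Cldn5) and 989 CPM (411 cells, led by Nts and Slc9a3r2), so the larger one lay below the venular-like mean. Mature dendritic cell-like cells were lower, from 866 to 894 CPM. Monocyte-like cells had the lowest mean of Nfkbia, 192 CPM, among classes with 4 libraries. Nfkbiz, which encodes a nuclear IkB protein that steers secondary inflammatory genes, was highest in venular-like cells at 397, 347, 308 and 340 CPM in control_4d, RA_4d, control_7d and RA_7d. Fibroblast-like cells were next (mean 136 CPM, range 125 to 153), 2.56-fold lower and without overlap, followed by committed progenitor-like cells at a mean of 132 CPM. Bcl3, another nuclear member of the family, varied least, with 4.22-fold between its highest and lowest class. Mature dendritic cell-like cells (mean 75.3 CPM, range 49.7 to 88.2) and monocyte-like cells (mean 70.9, range 63.7 to 83.6) overlapped at the top of Bcl3, and MHC class II-high macrophage-like cells came next at a mean of 56.2 CPM.

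The enzymes that end the signal were lymphoid and myeloid. Tnfaip3, which encodes the ubiquitin-editing enzyme that shuts off signaling complexes, showed the steepest range, 78.8-fold between its highest and lowest class. Natural killer cell-like cells held Tnfaip3 at 439 CPM in control_4d, 517 in RA_4d, 524 in control_7d and 546 in RA_7d. T cell-like cells overlapped them, at 522, 468, 368 and 612 CPM in the same order, and stood 4.28-fold above mature dendritic cell-like cells (mean 115 CPM). Birc3, which encodes a ubiquitin ligase that restrains the noncanonical branch, was highest in mature dendritic cell-like cells (mean 271 CPM, range 243 to 295), without overlap with natural killer cell-like cells (mean 122) or T cell-like cells (mean 113). Zc3h12a, which encodes an RNase that degrades inflammatory messenger RNAs, was highest in MHC class II-high macrophage-like cells (mean 71.1 CPM, range 61.6 to 84.7) and overlapped natural killer cell-like cells (mean 65.4) and T cell-like cells (mean 56.0).

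**Figure D1:**
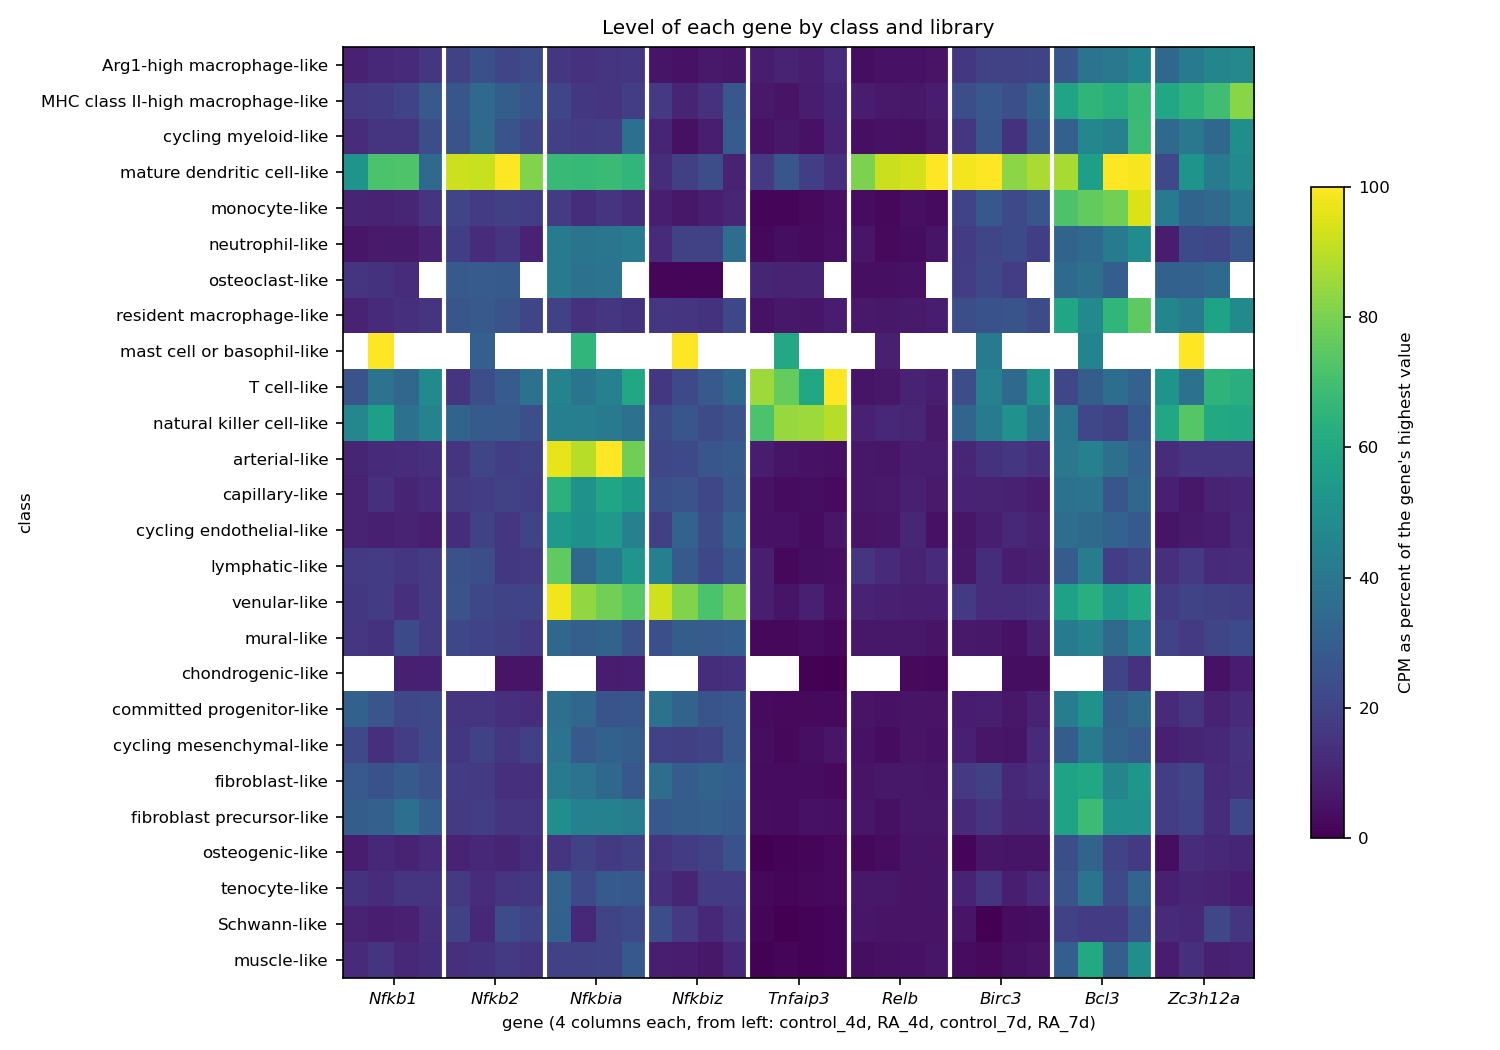
Level of each of the 9 genes (4 columns per gene, 1 per library) in each class with at least 20 cells (rows, grouped by lineage), as percent of the gene's highest CPM; white marks classes with fewer cells. The mature dendritic cell-like row is bright for Nfkb2, Relb and Birc3, the T cell-like and natural killer cell-like rows for Tnfaip3, and the arterial-like and venular-like rows for Nfkbia.

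**Figure D2:**
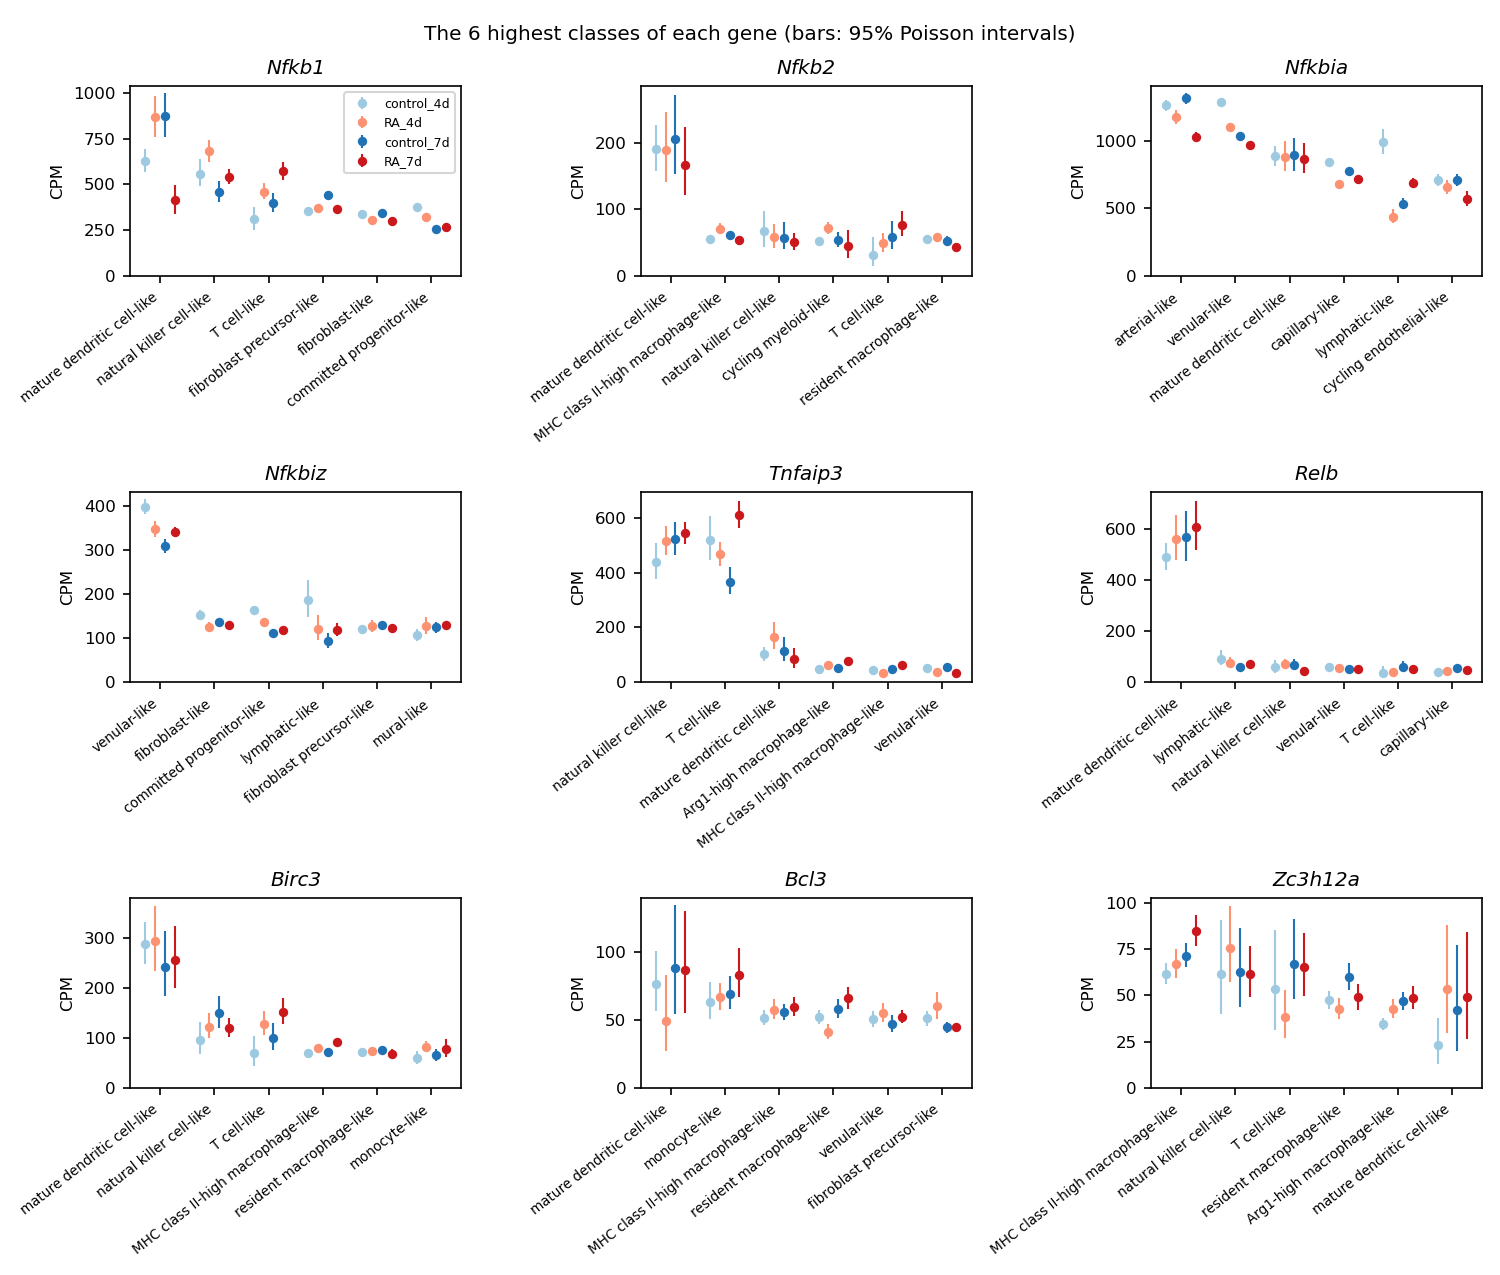
CPM (y axis, from 0) of each gene in its 6 highest classes with 4 libraries; points are libraries and bars are 95% Poisson intervals of counting error. Relb in mature dendritic cell-like cells lies between 489 and 609 CPM, above every library of the class that follows.

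Down the order of the 23 classes most neighbors could not be separated. Of 22 neighboring pairs, 20 or 21 overlapped in range for every gene. Classes were ordered by their mean, which places close levels side by side for any gene. Whether overlap or its absence is more frequent for these genes than for others was not tested. A mast cell or basophil-like class, which reached 20 cells in RA_4d only (27 cells), held Nfkb1 at 1208 CPM, Nfkbiz at 429 and Zc3h12a at 103, above every class with 4 libraries. At the low end, chondrogenic-like cells, present at 7 dpf, held Nfkbia at 98.5 CPM in control_7d and 109 in RA_7d. Free RNA from lysed cells can add to such levels. A bound scaled on S100a8 from neutrophil-like cells exceeded 10% of a level in 5 values, all in monocyte-like cells. Its median was at most 0.033% in any library. The bound covers RNA from neutrophil-like cells only. Free RNA from other cell types, among them those with the highest levels of these genes, was not tested.

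The comparison of RA with control asked which of these cell types change the genes in arthritic fractures. At 4 dpf, 3 of 139 pairs (2.16%) were called higher and 5 (3.60%) lower, against 5.47% and 4.78% of all gene-class pairs tested in the same classes. At 7 dpf, 12 of 174 pairs (6.90%) were called higher and 2 (1.15%) lower, against 5.89% and 5.08% of all pairs. The share of called pairs was therefore near or below the background except for the higher calls at 7 dpf, which exceeded it by about 1 percentage point. The median log2 ratio over the pairs was 0.03 at 4 dpf and 0.08 at 7 dpf. Of 122 pairs tested at both times, 77 (63.1%) had the same sign, against 57% of all pairs. The pair called higher at both times was Bcl3 in muscle-like cells, 1 of 122, beside 0.847% of all pairs. In all kept cells together, Nfkbia was 465 CPM in control_4d, 406 in RA_4d, 399 in control_7d and 442 in RA_7d, and Nfkbiz was 92.2, 85.9, 93.9 and 124 CPM. Class make-up differed between the libraries. Fibroblast-like cells were 6.58% of control_7d and 13.9% of RA_7d, venular-like cells 4.23% and 7.47%, and Arg1-high macrophage-like cells 8.7% and 5.0%. Within classes Nfkbia was above 0 in 9 of 20 at 7 dpf. The part of the make-up in the pooled values was not tested.

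**Figure D3:**
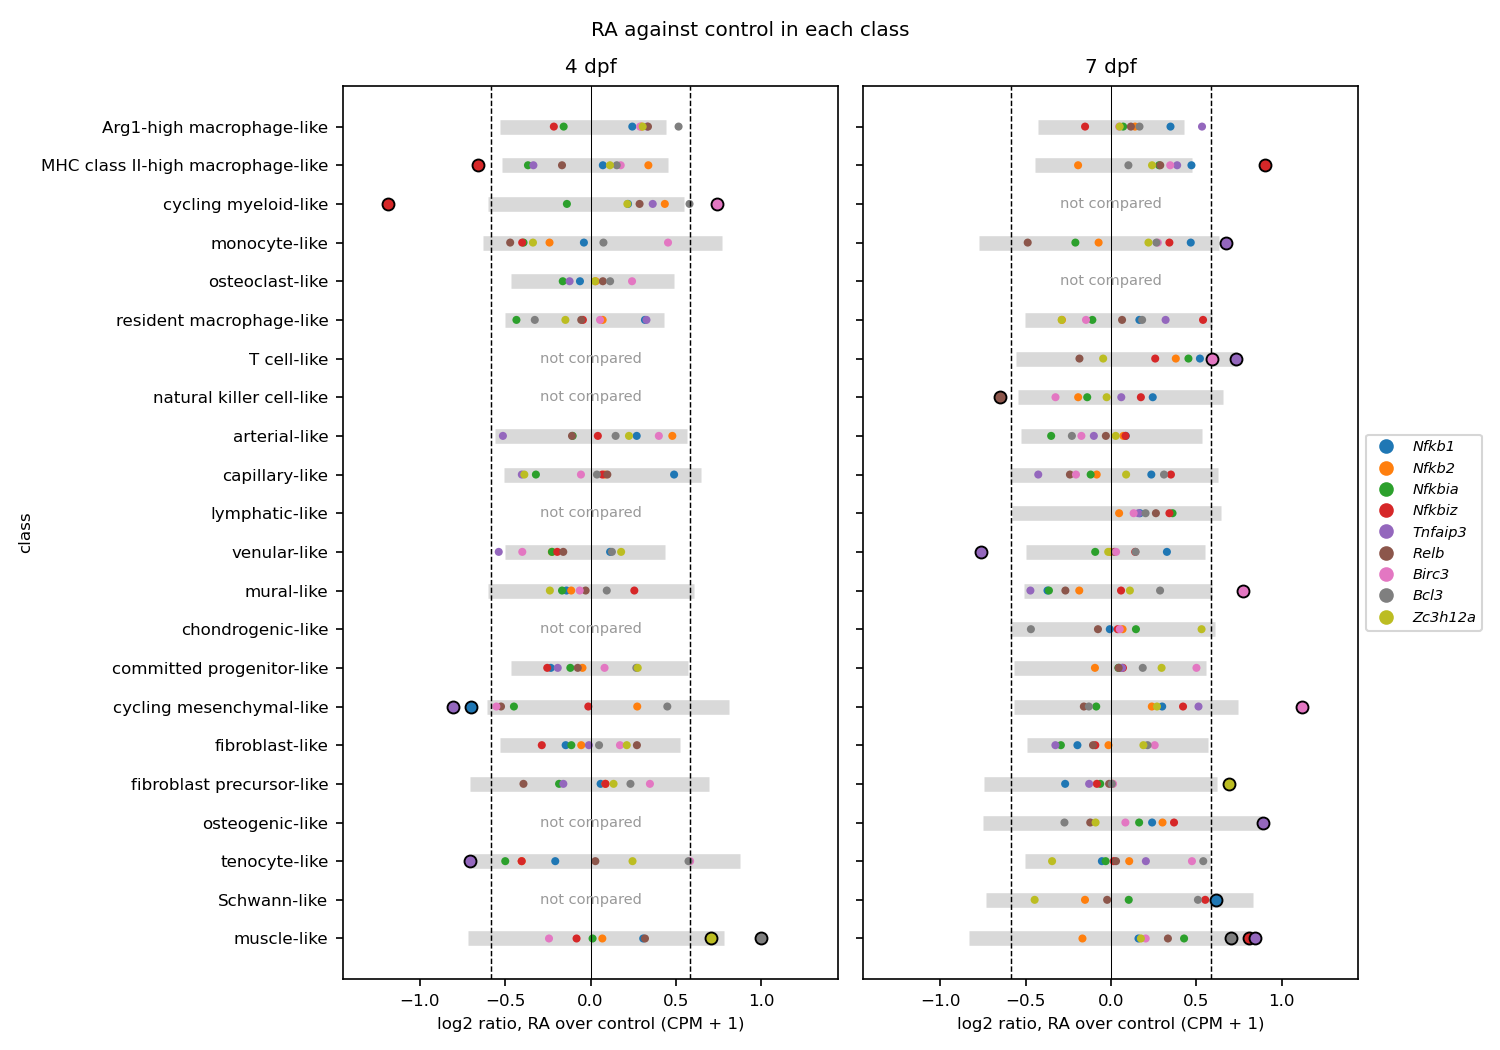
Log2 ratio of RA to control (x axis, on CPM + 1) in each compared class at 4 dpf (left) and 7 dpf (right); points are genes, outlined where past 1.5-fold (dashed lines), and gray bars span the 5th to 95th percentile of all tested genes of the class. Nfkbiz in MHC class II-high macrophage-like cells lies at -0.66 on the left and 0.91 on the right, and muscle-like cells have 2 outlined genes on the left and 3 on the right.

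Nfkbia and Bcl3 were the genes with the most one-sided values over classes at 4 dpf. Nfkbia was lower in RA in 15 of 16 classes, with ratio intervals below 1 in those 15, and the muscle-like class was the exception at a ratio of 1.01 (257.5 and 260 CPM). The shift was small, with a median log2 ratio of -0.18, and reached -0.50 in tenocyte-like cells (413 to 292 CPM) without passing 1.5-fold in any class. Of the 5133 genes tested in all 16 classes, 4.79% were below 0 in at least 15. The blood cell transcripts of RA_4d given above moved in the same classes, and their part in the result was not tested. Bcl3 moved the other way, above 0 in 15 of 16 classes (14 with TMM scaling), with resident macrophage-like cells below 0 at -0.33, and 3.76% of genes were above 0 in at least 15. At 7 dpf Nfkbia was above 0 in 9 of 20 classes, whereas Nfkbiz was above 0 in 17 of 20, and 10.7% of genes were above 0 in at least 17. Arg1-high macrophage-like, fibroblast-like and fibroblast precursor-like cells were the 3 classes with Nfkbiz below 0, at -0.15, -0.09 and -0.08.

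MHC class II-high macrophage-like cells, antigen-presenting macrophages by their markers, showed an Nfkbiz difference of opposite sign at the 2 times. Nfkbiz was 71.5 CPM in control_4d (493 UMIs), 45.0 in RA_4d (190 UMIs), 61.7 in control_7d (410 UMIs) and 116 in RA_7d (568 UMIs). The RA library was thus the lowest at 4 dpf and the highest at 7 dpf, with ratios of 0.63 (95% interval 0.53 to 0.75) and 1.89 (1.66 to 2.15). In this class 3.67% of all genes were called lower at 4 dpf and 3.07% higher at 7 dpf. The 3 sub-clusters of the class all had ratios below 1 at 4 dpf and above 1 at 7 dpf. In the sub-cluster led by Apoe, H2-Aa and C1qb, Nfkbiz went from 74.5 to 35.8 CPM at 4 dpf and from 55.5 to 118 at 7 dpf. In the one led by Retnla and Mmp12 the values were 75.7 to 55.5 and 75.3 to 125 CPM, and in the one led by H2-Eb1 and Ccr2 they were 57.4 to 52.4 and 64.8 to 106 CPM. At 4 dpf the ratio intervals of the latter 2 sub-clusters included 1. At 7 dpf 8 of the 9 genes were above 0 in the class, with a median log2 ratio of 0.29, and Nfkb2 was below at -0.19. The count was also 8 of 9 in Arg1-high macrophage-like (median 0.12), committed progenitor-like (0.07) and muscle-like cells (0.33). In lymphatic-like cells it was 8 of 8 (0.19). Nfkb1 in MHC class II-high macrophage-like cells was 242 CPM in control_7d and 335 in RA_7d, short of 1.5-fold. A list of 15 dissociation and immediate early genes, which handling of live cells induces, moved in the same directions, from 4460 to 4089 summed CPM at 4 dpf and from 3673 to 4495 at 7 dpf, and its part in the result was not tested.

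Muscle-like cells, named from Pax7, Myf5 and other satellite cell and myoblast genes, held 5 of the 15 higher calls. Bcl3 was 26.3 CPM in control_4d, 53.5 in RA_4d, 26.6 in control_7d and 43.9 in RA_7d. Both RA libraries lay above both control libraries, with ratios of 2.03 (1.58 to 2.62) at 4 dpf and 1.65 (1.31 to 2.09) at 7 dpf. Nfkbiz was 35.4 and 33.4 CPM in control_4d and RA_4d, and 27.7 and 49.4 in control_7d and RA_7d, so it was called at 7 dpf only (ratio 1.78, 1.42 to 2.24). Tnfaip3 was low throughout and went from 5.27 to 10.3 CPM at 7 dpf (27 and 37 UMIs), and Zc3h12a went from 8.29 to 14.1 CPM at 4 dpf (41 and 33 UMIs). Background was also high in this class, with 9.86% of all genes called higher at 4 dpf and 9.38% at 7 dpf.

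The make-up of the muscle-like class differed between conditions. A sub-cluster led by Chodl, Tenm4 and Calcr made up 28.4% of the class in control_4d, 36.8% in RA_4d, 23.9% in control_7d and 47.8% in RA_7d, while a cycling sub-cluster led by Des and Chrna1 made up 30.4%, 6.84%, 22.0% and 5.10%. At 7 dpf the largest sub-cluster in control_7d was instead the one led by Pax7 and Mybpc1 (36.6%). Among the 4 sub-clusters the Chodl-led one held the highest level of each of the 9 genes except Nfkb2. Within sub-clusters the Bcl3 ratio was 1.95 (1.13 to 3.43) and 1.52 (1.02 to 2.27) at 4 dpf in the Chodl-led and Pax7-led ones, and 2.11 (1.22 to 3.82) and 1.57 (1.06 to 2.33) at 7 dpf. In the sub-cluster led by Myog and Ttn it was 1.25 at 7 dpf with an interval that included 1. The Nfkbiz ratio at 7 dpf was 2.14 (1.38 to 3.36) in the Pax7-led sub-cluster but 1.17 (0.80 to 1.73) in the Chodl-led one. For Zc3h12a at 4 dpf it was 0.86 and 1.49 in the Chodl-led and Pax7-led sub-clusters, and both intervals included 1, as did all Tnfaip3 intervals at 7 dpf. Alongside, the median depth went from 24638 to 18278 UMIs per cell at 4 dpf and from 14481 to 9772 at 7 dpf, and the dissociation list went from 2835 to 3496 and from 2626 to 4384 summed CPM. Summed myeloid markers went from 829 to 217 CPM at 7 dpf. The part of these values in the result was not tested.

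**Figure D4:**
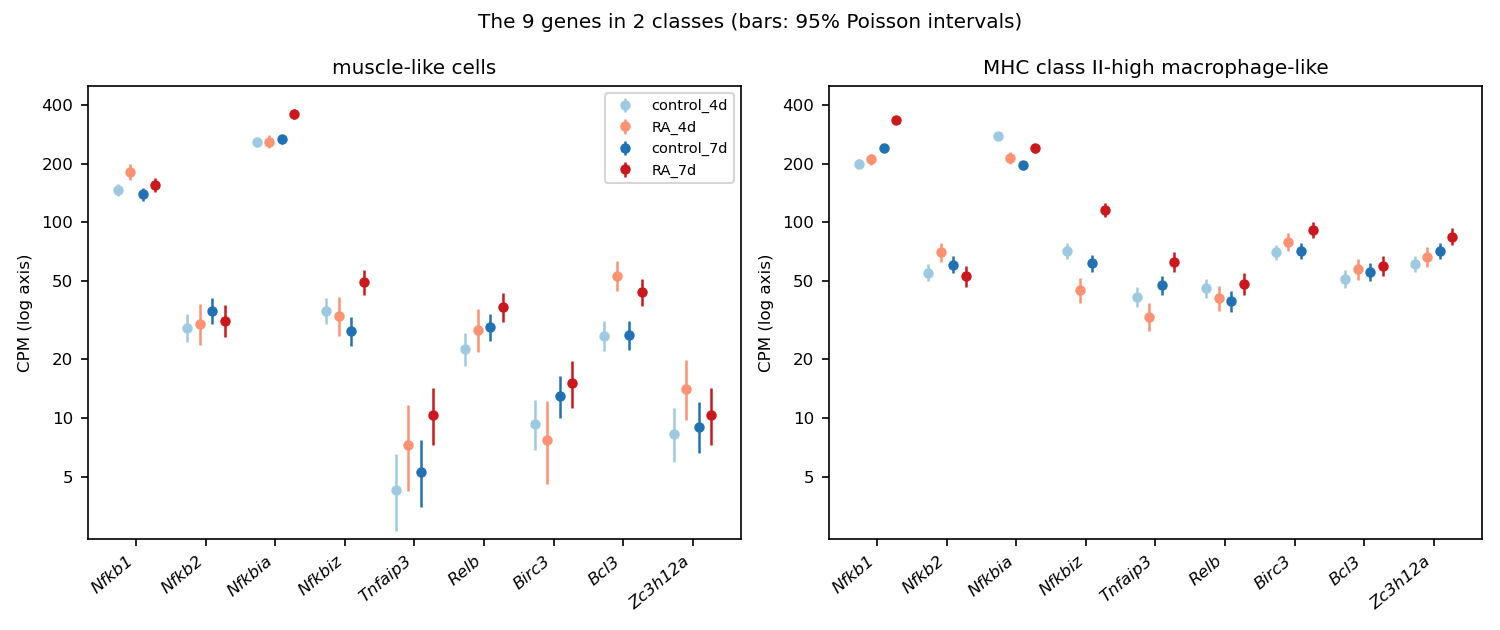
CPM (log axis) of the 9 genes in muscle-like cells (left) and MHC class II-high macrophage-like cells (right); points are libraries and bars are 95% Poisson intervals. In the left panel Bcl3 is higher in both RA libraries (53.5 and 43.9 CPM) than in both controls (26.3 and 26.6 CPM), and in the right panel Nfkbiz is lowest in RA_4d (45.0 CPM) and highest in RA_7d (116 CPM).

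T cell-like cells were compared at 7 dpf only, on 72 control and 104 RA cells. Tnfaip3 went from 368 to 612 CPM (ratio 1.66, 1.42 to 1.95) and Birc3 from 101 to 153 CPM (ratio 1.51, 1.11 to 2.08), where 8.86% of all genes were called higher. Beside the 4 dpf libraries, which held 522 and 468 CPM of Tnfaip3 on 36 and 82 cells, control_7d was the low value and RA_7d the high one. In the sub-cluster led by Trbc2, the one with at least 20 cells in both 7 dpf libraries, Tnfaip3 went from 421 to 781 CPM and Birc3 from 99.9 to 168. The dissociation list went from 3293 to 4076 summed CPM in these cells, and its part in the result was not tested. The make-up of the class also differed. A sub-cluster led by Ikzf2 and Ctla4 made up 3.66% of it in RA_4d (3 cells), 20.8% in control_7d and 39.4% in RA_7d. Of the 3 sub-clusters it held the most Nfkb1, Nfkb2, Nfkbia, Nfkbiz and Zc3h12a, whereas Tnfaip3 and Birc3 were highest in the Trbc2-led one. The part of this make-up in the values of T cell-like cells, also between times, was not tested. Within the RA libraries, 4 of the 9 genes were at least 1.5-fold higher at 7 than at 4 dpf in T cell-like cells, where 12.9% of all genes were. In MHC class II-high macrophage-like, monocyte-like and cycling mesenchymal-like cells 3 each were, against 6.04%, 6.08% and 13% of all genes. Tenocyte-like cells had 2 such genes, against 10.5%. Capillary-like, muscle-like and resident macrophage-like cells had 1 each, against 5.33%, 9.53% and 6.61%, and the remaining classes had none. T cell-like cells had too few control_4d cells for the same comparison in the control libraries. In the 16 classes that had enough, mural-like cells had 1 such gene and the others had none, with 2.58% to 11.1% of all genes higher. Within monocyte-like cells a sub-cluster with cycling genes went from 19.6% to 4.44% of the class between the RA libraries. Between the control libraries it went from 5.0% to 17.7%, and its part in these counts was not tested.

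Tnfaip3 in venular-like cells was 1 of the 2 lower calls at 7 dpf. In these cells, which line the vessels where leukocytes exit, Tnfaip3 was 52.5 CPM in control_4d, 35.9 in RA_4d, 53.3 in control_7d and 31.1 in RA_7d, so both RA libraries lay below both controls. The ratio was 0.68 (0.56 to 0.83) at 4 dpf, short of the call, and 0.58 (0.49 to 0.69) at 7 dpf, where 3.38% of all genes were called lower. All 3 venular-like sub-clusters with enough cells had ratios of 0.48 to 0.64 at 7 dpf, with intervals below 1. Arterial-like cells went from 49.0 to 34.0 CPM at 4 dpf and from 29.7 to 27.6 at 7 dpf, and capillary-like cells from 28.8 to 21.5 and from 23.1 to 16.9. Lymphatic-like cells, compared at 7 dpf only, went the other way, with all 8 tested genes, Tnfaip3 among them, above 0. The venular-like class held 7.83% to 12.3% called doublets per library, and the call remained with doublets left out.

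Cycling cells held 4 calls at 4 dpf. In cycling myeloid-like cells Nfkbiz went from 44.0 to 18.8 CPM (ratio 0.43, 0.32 to 0.56) and Birc3 from 46.8 to 79.0 (ratio 1.69, 1.43 to 1.99), and both ratios were on the same side of 1 in both sub-clusters with enough cells, with intervals that excluded 1. In this class 5.32% of all genes were called lower and 4.18% higher. RA_7d held 22 cells of it, too few to compare, with Nfkbiz at 126 CPM beside 36.5 in control_7d. Summed mesenchymal markers were 3947 CPM in those 22 cells beside 394 in control_7d, doublets 9.09% beside 0, and 1 sub-cluster made up 40.9% beside 18.4%, and their part in the Nfkbiz value was not tested. In cycling mesenchymal-like cells Nfkb1 went from 268 to 164 CPM (ratio 0.61, 0.53 to 0.71) and Tnfaip3 from 22.4 to 12.4 (42 and 24 UMIs) at 4 dpf, whereas at 7 dpf Birc3 went from 16.4 to 36.7 CPM (ratio 2.24, 1.64 to 3.06). Of all genes in these cells 5.5% were called lower at 4 dpf and 8.54% higher at 7 dpf. The Tnfaip3 value turned to a log2 ratio of 0.14 when shallower cells were admitted.

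The remaining calls were single genes. At 7 dpf Zc3h12a was higher in fibroblast precursor-like cells (13.4 to 22.3 CPM, ratio 1.66, 1.37 to 2.03), although 1 of 3 sub-clusters with enough cells, with 14 and 67 UMIs, had a ratio of 0.74. In these cells 5.45% of all genes were called higher. Birc3 was higher in mural-like cells (14.6 to 25.7 CPM, ratio 1.76, 1.27 to 2.47), with ratios of 1.69 and 1.91 in its sub-clusters and 5.16% of all genes called higher. Nfkb1 was higher in Schwann-like cells (110 to 169 CPM, ratio 1.54, 1.24 to 1.92), where 9.45% of all genes were. Summed myeloid markers went from 2907 to 297 CPM in these cells and summed mesenchymal markers from 2913 to 5642, and their part was not tested. Tnfaip3 was higher in osteogenic-like cells (7.55 to 14.9 CPM, 27 and 25 UMIs), as were 12.5% of all genes, and the dissociation list went from 3390 to 5123 summed CPM, and its part was not tested. Relb was lower in natural killer cell-like cells (66.1 to 41.8 CPM, ratio 0.63, 0.41 to 0.98), as were 4.17% of all genes. Tnfaip3 in monocyte-like cells at 7 dpf (15.7 to 25.6 CPM) and in tenocyte-like cells at 4 dpf (13.4 to 7.87 CPM) passed the fold with intervals that included 1, in classes where 6.09% of all genes were higher and 7.5% lower, respectively. In monocyte-like cells summed neutrophil markers went from 11825 to 3242 CPM, and a sub-cluster with cycling genes went from 17.7% to 4.44% of the class. In tenocyte-like cells the Tnfaip3 ratio was 2.02 in 1 sub-cluster and 0.11 in another, which went from 12.5% to 49.5% of the class. The part of this make-up in both values was not tested.

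The number of genes per cell gave a second view. Each cell was thinned to 4000 UMIs, a depth that every kept cell had, and counted if it held UMIs of 3 or more of the 9 genes. The share was highest in mature dendritic cell-like cells (mean 94.0%) among the classes with 4 libraries, followed by natural killer cell-like cells (75.5%), T cell-like cells (72.0%) and venular-like cells (60.9%), and lowest in Schwann-like cells (15.4%). Of the classes in fewer libraries, it was 88.9% in mast cell or basophil-like cells (RA_4d) and a mean of 9.10% in chondrogenic-like cells (7 dpf). At 4 dpf the share was higher in RA in 9 of 16 classes, and no interval pair was apart. At 7 dpf it was higher in 16 of 20, and 2 classes had intervals that did not meet. These intervals treat the cells of a pooled library as independent, so intervals that do not meet are no test of the condition. Whether such counts are unusual was not tested against other gene sets. In MHC class II-high macrophage-like cells the share was 39.0% in control_7d (228 of 584 cells, 95% Clopper-Pearson interval 35.1 to 43.1). In RA_7d it was 50.6% (203 of 401, 45.6 to 55.6). In muscle-like cells it was 16.8% (52 of 309, 12.8 to 21.5) in control_7d and 26.4% (83 of 314, 21.6 to 31.7) in RA_7d. Without thinning the muscle-like class had 61.2% and 62.7%. Its Chodl-led sub-cluster, highest of the sub-clusters for every gene but Nfkb2, went from 23.9% to 47.8% of the class. The part of this make-up in the share was not tested.

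**Figure D5:**
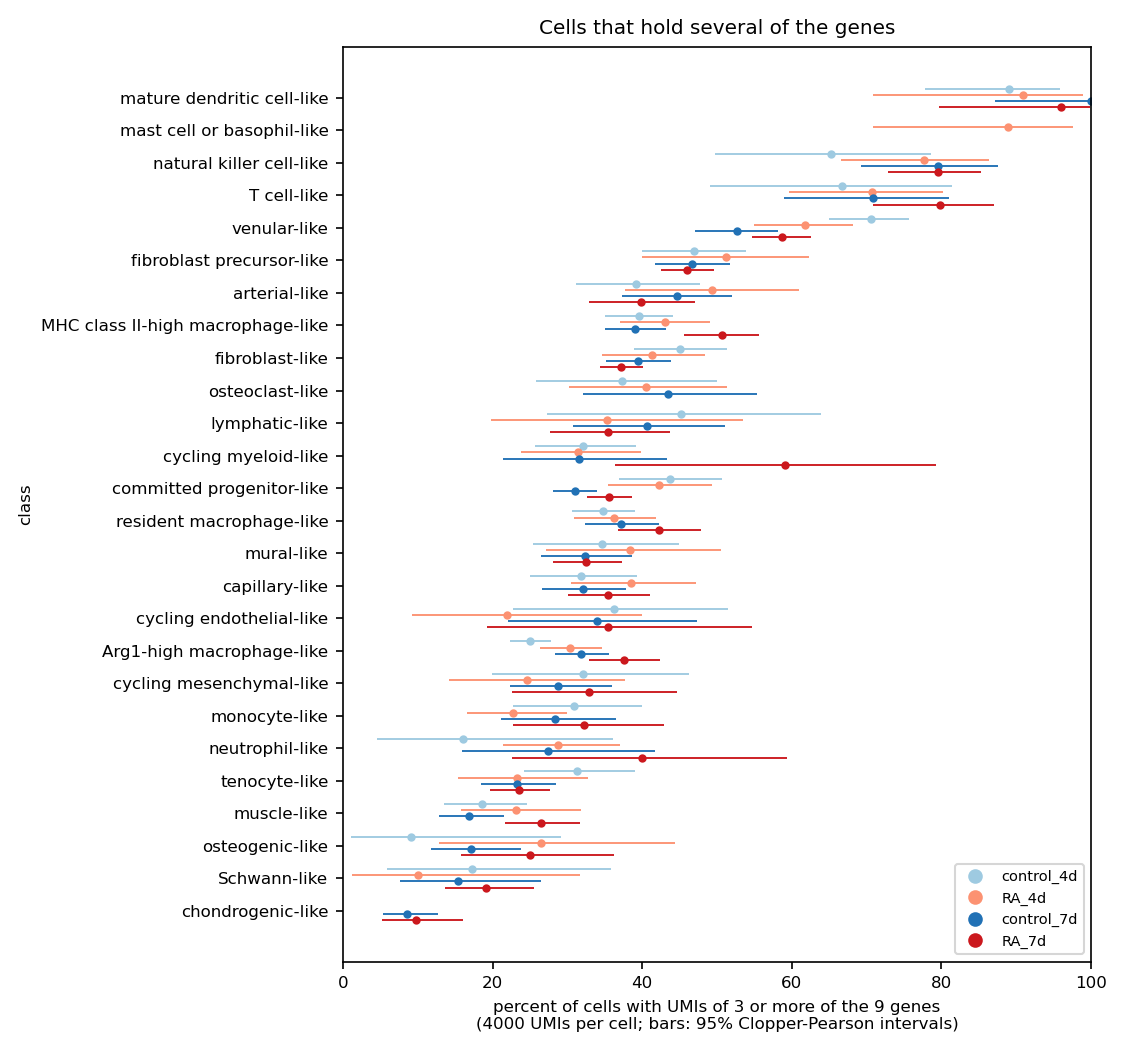
Percent of cells (x axis) with UMIs of at least 3 of the 9 genes after thinning to 4000 UMIs, by class (rows) and library (color); bars are 95% Clopper-Pearson intervals. The mature dendritic cell-like class lies at 89.1% or more in each library, and the chondrogenic-like class below 10%.

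Other genes of the pathway, taken from fixed lists, were read in the same classes, where all gene-class pairs had 5.47% higher and 4.78% lower at 4 dpf and 5.89% higher and 5.08% lower at 7 dpf. A list of 15 further genes held NF-kB subunits and inhibitors and also wider feedback genes such as Socs3 and Zfp36. Of its pairs, 8 of 222 (3.60%) were higher and 6 (2.70%) lower at 4 dpf. At 7 dpf 19 of 274 (6.93%) were higher and 3 (1.09%) lower. Socs3 gave 4 of the higher pairs at each time and Zfp36 gave 2 at each time, so these shares do not describe NF-kB subunits and inhibitors alone. Socs3, a feedback inhibitor of cytokine signaling, was called higher in 8 of 36 pairs and lower in 1, and in muscle-like cells it was 65.5, 163, 48.6 and 163 CPM in control_4d, RA_4d, control_7d and RA_7d. Zfp36, which destabilizes inflammatory messenger RNAs, was 54.8, 123, 63.7 and 127 CPM there. Irak3, an inhibitor of receptor signaling, was higher in 4 of 32 pairs and lower in 1. In fibroblast precursor-like cells Irak3 was 67.8 CPM in control_7d and 135 in RA_7d. Tnip2 was higher in 4 of 32 pairs and lower in 1, whereas Tnip1 was higher in 1 of 36 and lower in 3.

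Among 15 IKK and adaptor genes few pairs were called. At 4 dpf 3 of 223 pairs (1.35%) were higher and 1 (0.448%) lower, and at 7 dpf 6 of 276 (2.17%) went each way. Ikbke was higher in 3 of 25 pairs and lower in 1. Map3k7 and Tbk1 were each higher in 2 of 36 and lower in 1. Ikbkb was higher in 2 of 36 and lower in none, and Traf2 was lower in 2 of 27 and higher in none. Among 12 receptors, 13 of 149 pairs (8.72%) were higher and 11 (7.38%) lower at 4 dpf, and 21 of 183 (11.5%) were higher and 10 (5.46%) lower at 7 dpf. Il1rap, the most often called receptor gene, was higher in 7 of 34 pairs and lower in 2. The decoy receptor Il1r2 was higher in 3 of 18 and lower in 5, and Tlr2 was higher in 2 of 24 and lower in 3. Il1r1, the signaling receptor of IL-1, was higher in 7 of 26 pairs and lower in none. Il17ra, a receptor subunit for IL-17, was higher in 6 of 33 and lower in none. In committed progenitor-like cells Il1r1 was 180 CPM in control_4d and 298 in RA_4d. In muscle-like cells Il17ra was 27.3 and 58.6 CPM at 4 dpf and 35.2 and 109 at 7 dpf.

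Among 35 other target genes, mostly chemokines, cytokines and adhesion genes, 55 of 323 pairs (17.0%) were higher and 54 (16.7%) lower at 4 dpf, and 94 of 429 (21.9%) were higher and 50 (11.7%) lower at 7 dpf. Cxcl10, an interferon-responsive chemokine, was lower in 10 of 16 classes at 7 dpf and higher in 1, Schwann-like cells (95.6 to 215 CPM), and at 4 dpf it was lower in 3 of 12 and higher in 2. Ccl2, which attracts monocytes, was higher in 7 of 18 classes and lower in 3 at 7 dpf, and higher in 4 and lower in 4 of 15 at 4 dpf. The neutrophil attractant Cxcl2, the most often called of these genes, was lower in 7 of 15 classes and higher in 3 at 4 dpf. At 7 dpf Cxcl2 was lower in 7 of 20 and higher in 3. Over both times Ccl4 was higher in 11 of 20 pairs and lower in 4, and Ccl5 was higher in 10 of 21 and lower in 6. In MHC class II-high macrophage-like cells Cxcl2 followed the sign of Nfkbiz, from 795 to 400 CPM at 4 dpf and from 532 to 1017 at 7 dpf. Ccl2 and the chemokine Ccl4 were also higher there at 7 dpf (109 to 286 and 132 to 340 CPM). The chemokine Ccl5 was lower there at 7 dpf (53.9 to 30.3 CPM), and the decoy receptor Il1r2 was lower at both times (33.9 to 18.9 and 13.9 to 8.82 CPM). The dissociation and immediate early list was higher in 38 of 237 pairs (16.0%) at 4 dpf and in 71 of 295 (24.1%) at 7 dpf, and its sum was higher in RA in 9 of 16 and in 20 of 20 classes. Its part in the 7 dpf values of the 9 genes was not tested. Across classes its log2 ratio and the median of the 9 genes had a Pearson r of -0.13 at 4 dpf (16 classes) and 0.34 at 7 dpf (20 classes), which share libraries and are given as a description.

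The genes whose pattern was nearest to the mean log2 level of the 9 were Casp4 (r = 0.79), Man1a (0.77), Igtp (0.77), Samd9l (0.77) and Ifi203 (0.75), out of 11930 compared over 56 points, which are 14 classes in 4 libraries that share depth and handling. These 14 classes had enough cells at both times and include no T cell-like, natural killer cell-like or mature dendritic cell-like cells. These genes were picked for the highest r of all genes compared, so how alike the 9 genes are cannot be judged against them. Each of the 9 genes had an r of 0.10 (Nfkbia) to 0.59 (Tnfaip3) with the mean of the others. Single pairs of them ran from 0.79 for Birc3 with Zc3h12a to -0.56 for Nfkbia with Zc3h12a.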

How the data were processed

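For each of the 4 libraries the deposited matrix gave unnormalized UMI counts by gene and barcode. The authors produced them using Cell Ranger 7.0.1 on mm10 per the submitters' processing notes, with 10x 3′ v3.1 chemistry. Depth was 130168130 to 182259646 UMIs per library over 34038 barcodes. Following the cutoffs in the methods of the study, barcodes with 4000 to 50000 UMIs, 2000 to 7000 genes and at most 8% mitochondrial UMIs were kept. Libraries were integrated by canonical correlation (Seurat 5.3.0 in R 4.3.3, 15 components) and clustered into 21 clusters, and clusters of at least 300 cells were clustered again. The 9 genes and the pathway lists (86 genes) were kept out of the variable genes. Clusters were named by a script from marker lists. Sub-clustering and the thresholds for a name were decided once clusters were known, so shares and class differences may come from rebuilt names. Scrublet (scanpy 1.11.5) called doublets, which were kept in the main values.

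UMIs were summed per class and library (Python 3.11.15, numpy 2.4.6, scipy 1.17.1, pandas 2.3.3). A pair of a gene and a class was tested where both libraries together held at least 50 UMIs and each held at least 50 cells, and called at 1.5-fold on log2(CPM + 1). No test between conditions was possible with 1 library each. Intervals are 95% exact Poisson for levels, exact conditional for ratios and Clopper-Pearson for shares, and cover counting error only. The calculations were tested on simulated data. The alternatives tried were a looser cell filter (from 1000 UMIs), no integration, resolution 1, the lists allowed as variable genes, doublets or shared barcodes left out, TMM scaling, the mean over cells, a pseudocount of 10 CPM, a minimum of 10 UMIs, a 2-fold call and, chosen after seeing the data, no sub-clustering. Values are given in full for each gene's 3 highest classes and for pairs called at both times, and for other calls more briefly. The up to 5 most often called genes of each list are given by call counts, with values in some classes only. The 5 genes most alike are given by their r. Sub-cluster values, Schwann-like and cycling classes and values under the cell minimum were chosen for the text after they were seen. The 9 genes and all lists were chosen with earlier results of these data known. Promoter windows and positions came from RefSeq and GENCODE tables of the mouse build GRCm38.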

Additional observations from a re-analysis of the deposited data

Results flagged for a closer look

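The Nfkbiz ratio of RA to control in MHC class II-high macrophage-like cells passed 1.5-fold in opposite directions at the 2 times. On the log2 scale the 4 dpf value was -0.66 and the 7 dpf value was 0.91. Each value rests on 1 library per condition, so the difference between the times was not tested. Of all gene-class pairs tested at both times, 0.97% were called in opposite directions. The dissociation list changed sign with it, at 4460 and 4089 summed CPM at 4 dpf and 3673 and 4495 at 7 dpf, and its part was not tested.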

How the results depend on the processing

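The number of pairs called higher at 4 dpf (3) became 7 with the looser cell filter, 5 without integration, 5 at resolution 1 and 0 at 2-fold. The number called lower at 4 dpf (5) became 11 with the looser filter, 2 without integration, 8 with TMM scaling, 8 with the mean over cells, 2 with a pseudocount of 10 CPM, 1 at 2-fold and 3 without sub-clustering. At 7 dpf the 12 higher pairs became 4 with that pseudocount and 1 at 2-fold, and the 2 lower pairs became 4 without integration, 4 at resolution 1, 1 with the pseudocount, 1 without shared barcodes, 1 without sub-clustering and 0 at 2-fold. A larger fold and a larger pseudocount admit fewer pairs by construction, and the cause of the other changes was not tested. The pairs tested and the share of all genes called under each setting are not set beside these counts. The counts therefore do not show whether the 9 genes changed more than other genes did. Of the single called values, Tnfaip3 in cycling mesenchymal-like cells at 4 dpf turned to a log2 ratio of 0.14 with the looser filter. Without integration, 5 of the 20 values that could be computed moved beyond their counting intervals in the same direction, and they are not named here. With each other alternative at most 1 did, although without sub-clustering only 10 of the 22 values could be computed. No paired analysis was possible because each group has 1 library. The limits are that 1 pooled library stands for each group, that classes were rebuilt here from markers, that several calls rest on under 100 UMIs, and that genes read at their 3′ end give no level relative to each other.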

Other observations

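Cells that the markers placed in no named class also carried the genes, and their values stand here without a call count. An unnamed group of antigen-presenting cells from 1 cluster, led by Cd209a, Il1b and MHC class II genes, held Nfkbiz at 68.1 CPM in control_4d and 44.5 in RA_4d, and at 73.1 CPM in control_7d and 120 in RA_7d. The signs are those of the MHC class II-high macrophage-like cells. Nfkbia in these cells was 495 CPM in control_4d and 294 in RA_4d (ratio 0.59, 95% interval 0.54 to 0.65), and Tnfaip3 was 55.2 CPM in control_7d and 84.2 in RA_7d.

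A myeloid group without a type name joined a sub-cluster led by St18 and another led by Slc40a1 and Hmox1. It held Nfkbiz at 23.1 CPM in control_7d (110 UMIs) and 64.9 in RA_7d (73 UMIs), a ratio of 2.82 (2.07 to 3.82). Of all genes in this group 6.36% were called higher at 7 dpf, and the part of its make-up in the ratio was not tested. At 4 dpf its lowest log2 ratio over the 9 genes was -0.07. In the same cells Nfkb1 was 126 and 207 CPM. Another unnamed myeloid group at 4 dpf had Nfkbiz at 98.6 CPM in control_4d and 51.2 in RA_4d (ratio 0.52, 0.40 to 0.66). Of its 9 genes, 3 had log2 ratios above 0 at 4 dpf and 6 at 7 dpf. A mesenchymal group without a type name, led by Brinp3 and Timp1, had 8 of 9 above 0 at 4 dpf (median 0.23) and 9 of 9 at 7 dpf (0.33). Another mesenchymal group, led by Eln and Cilp, had 5 of 9 above 0 at 7 dpf (0.16).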
